A study of Mus musculus with 15 samples.

Results

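The proliferation genes described here are 40 genes whose products copy DNA or carry a cell through mitosis, chosen by name. Of these, 15 belong to replication and 25 to mitosis, and 39 were measured among the 19500 genes with a probe set of their own. Foxm1, the mitotic transcription factor of the list, had no probe set with a single gene symbol and was not analysed here. For each gene the probe set brightest on average over the arrays was used, and Pcna was the single member with more than 1 probe set. The RNA came from Tg(Pcp2-L10a-Egfp) mice, which carry the ribosomal protein L10a fused to a green fluorescent protein under the promoter of Pcp2, a gene of Purkinje cells. All groups carried this transgene and no group was treated, so age was the labelled difference. Cerebella were pooled, ribosomes were captured through the tag, and their RNA was hybridised to 15 Affymetrix arrays, with 3 arrays per age and the ages P0, P7, P15, P21 and P56 (days after birth). Neither whole tissue RNA nor mice lacking the transgene entered the comparison, and the sources used here do not give strain or sex, so no value is an enrichment over the tissue.

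Values are log2 signals as deposited, and each change is a difference of log2 signals, the later age minus the earlier. A call means an adjusted p under 0.05 in limma over all 22092 probe sets, and an error beside a change is the standard error (SE) of that fit. Array medians ran over 7.59 to 7.93, and arrays of the same age correlated at 0.994 to 0.999 over probe sets. A signal under an array's lower quartile, which lay between 5.86 and 6.01, may be background alone. The mean over 9 Purkinje cell markers was 8.44 to 8.5 at P0, 13.14 to 13.18 at P7 and 13.41 to 13.44 at P56, and Ppp1r17 lay under the lower quartile at P0. The captured RNA of P0 therefore stood apart from that of the later ages in its own defining markers, and the share of Purkinje cell RNA was not measured.

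A dividing cell first licenses its replication origins with CDC6 and the MCM helicase, starts DNA synthesis under cyclin E with CDK2, and extends the new strands on the sliding clamp PCNA. It then enters mitosis under cyclins A and B with CDK1, aligns its chromosomes through kinetochores and the spindle under AURKA, AURKB and PLK1, and leaves mitosis when the ubiquitin ligase APC/C, activated by CDC20, destroys securin and cyclin B. Purkinje cells have left the cell cycle before birth, whereas granule cell progenitors of the cerebellum divide in the external granule layer during the early postnatal weeks.

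The promoters of the members were read for elements known from genes of the cell cycle, and a link between these elements and the changes with age was not tested. The RefSeq table (GRCm38.p6) held windows of 300 bases, with 250 before and 50 after the start, for 34 of the 39 measured members, with a pair of windows for Mcm7 and for Prc1. Searched on both strands, the cell cycle genes homology region (CHR, letters TTTGAA or TTCGAA) was present in 17 of 22 windows of mitosis genes (77.3%), in 2 of 14 windows of replication genes (14.3%) and in 19.2% of all 32851 windows. The E2F letters (TTTCGCGC, TTTGGCGC, TTTCCCGC or TTTGCCGC) were present in 1 of 22 mitosis windows (4.55%), in 6 of 14 replication windows (42.9%) and in 2.26% of all windows. The CCAAT box, known to bind NF-Y, was present in 17 of 22 mitosis windows (77.3%), in 10 of 14 replication windows (71.4%) and in 37.4% of all windows. A match is a run of letters and not a shown binding site, and these shares were not tested.

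**Figure D1:**
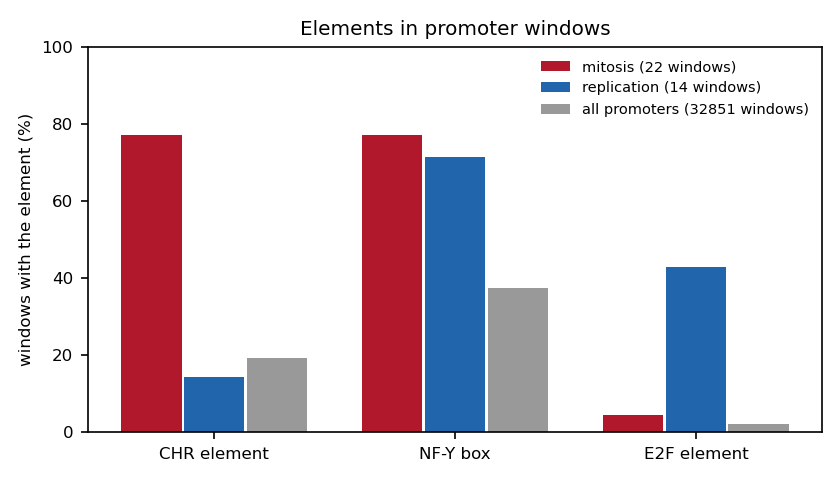
Share of promoter windows (vertical axis, percent) that hold the CHR, the NF-Y box or the E2F element, for 22 windows of mitosis genes, 14 of replication genes and all 32851 windows. The CHR bar is high for mitosis genes (77.3%) and low for replication genes (14.3%), and the E2F bars show the opposite order (4.55% and 42.9%).

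The windows below belong to the 3 genes of each class with the largest fall from P7 to P15 among those with a window, mitosis first. They are written 5′ to 3′ along the gene, and capitals mark the letters of the 3 elements.
Plk1, chr7:122159185-122159484, plus strand: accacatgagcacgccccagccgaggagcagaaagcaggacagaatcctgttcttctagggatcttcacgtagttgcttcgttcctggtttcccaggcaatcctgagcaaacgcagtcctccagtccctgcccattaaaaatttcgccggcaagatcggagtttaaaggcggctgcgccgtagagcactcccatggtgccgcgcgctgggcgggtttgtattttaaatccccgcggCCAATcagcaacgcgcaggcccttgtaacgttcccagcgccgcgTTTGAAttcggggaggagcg
Top2a, chr11:99024140-99024439, minus strand: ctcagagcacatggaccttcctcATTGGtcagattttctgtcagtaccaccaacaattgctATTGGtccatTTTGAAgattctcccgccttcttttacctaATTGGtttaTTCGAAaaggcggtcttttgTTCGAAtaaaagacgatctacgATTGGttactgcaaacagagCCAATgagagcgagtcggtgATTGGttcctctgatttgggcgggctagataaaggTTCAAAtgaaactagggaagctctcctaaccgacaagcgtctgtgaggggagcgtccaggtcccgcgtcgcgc
Mki67, chr7:135716330-135716629, minus strand: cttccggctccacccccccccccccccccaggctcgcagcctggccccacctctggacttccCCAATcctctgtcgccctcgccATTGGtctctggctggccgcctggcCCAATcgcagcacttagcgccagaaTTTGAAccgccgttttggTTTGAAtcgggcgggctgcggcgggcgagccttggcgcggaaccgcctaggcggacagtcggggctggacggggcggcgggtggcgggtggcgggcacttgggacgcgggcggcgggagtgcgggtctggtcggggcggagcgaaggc
Rrm2, chr12:24708004-24708303, plus strand: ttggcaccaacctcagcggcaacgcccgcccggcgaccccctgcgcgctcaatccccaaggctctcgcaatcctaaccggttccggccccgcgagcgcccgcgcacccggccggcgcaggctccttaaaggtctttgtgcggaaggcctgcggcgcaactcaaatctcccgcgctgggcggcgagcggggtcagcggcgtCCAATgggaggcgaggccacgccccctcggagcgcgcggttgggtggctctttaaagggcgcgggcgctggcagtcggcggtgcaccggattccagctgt
Mcm6, chr1:128359656-128359955, minus strand: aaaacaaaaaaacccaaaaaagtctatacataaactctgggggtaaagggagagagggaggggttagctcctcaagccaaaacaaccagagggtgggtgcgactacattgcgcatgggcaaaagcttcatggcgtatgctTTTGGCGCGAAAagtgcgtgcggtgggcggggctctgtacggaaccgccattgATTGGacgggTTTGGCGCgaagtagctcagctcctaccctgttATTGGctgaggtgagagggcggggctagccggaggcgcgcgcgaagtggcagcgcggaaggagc
Mcm7, chr5:138171834-138172133, minus strand: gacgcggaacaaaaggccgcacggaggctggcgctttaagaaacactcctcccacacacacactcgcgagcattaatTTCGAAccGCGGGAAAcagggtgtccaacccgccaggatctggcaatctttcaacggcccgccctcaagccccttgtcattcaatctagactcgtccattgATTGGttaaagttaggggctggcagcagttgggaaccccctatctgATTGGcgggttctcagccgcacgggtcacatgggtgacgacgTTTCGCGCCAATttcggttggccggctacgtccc
Mki67 held a pair of CHR letters, 116 and 98 bases before the start, with 3 CCAAT boxes further upstream. Top2a held 4 CHR matches and 6 CCAAT boxes, and Plk1 held 1 of each, with its CHR 31 bases into the transcript. In Mcm6, E2F letters began 110, 106 and 47 bases before the start, the first of them overlapping the second. CCAAT boxes numbered 2 in Mcm6 and 3 in Mcm7. The Mcm7 window shown held 2 E2F matches, of which the one 17 bases into the transcript overlapped a CCAAT box, and also 1 CHR. Rrm2 held a single CCAAT box and neither of the other elements.

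Over the whole course, P56 against P0, most proliferation genes fell. Of 24 mitosis genes, 22 fell and 2 rose, with a median change of −1.36. Of 15 replication genes, 12 fell, 2 rose and 1 was not called, with a median of −1.17. Over all probe sets 35.3% were called lower and 40.1% higher, and the median change was 0.085. In the same comparison all 9 Purkinje cell markers rose (median 4.41) and all 10 endothelial markers fell (median −2.37). Of 10 microglial markers 9 fell and 1 rose (median −1.65), and 7 of 8 oligodendrocyte precursor markers fell (median −1.42). The part of this change in the captured RNA in the falls of the members was not tested. In all, 38 of the 39 members differed between ages by limma's F-test, as did 81.6% of all probe sets, and Cdc6 was the one that was not called.

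Ccna2, which encodes cyclin A2 of S phase and mitotic entry, had signals of 9.92, 10.07 and 9.84 at P0, 9.91, 9.78 and 9.70 at P7, 7.68, 7.40 and 7.68 at P15, 6.62, 6.01 and 6.57 at P21, and 6.31, 5.97 and 6.27 at P56. It was not called in the first week, was lower on every array from P15 on and changed by −3.75 between P56 and P0 (SE 0.14, limma adjusted p 6.32e-14). Mki67, whose product coats mitotic chromosomes and marks dividing cells, had 9.29, 9.27 and 9.23 at P0, 8.87, 8.65 and 8.69 at P7, 6.89, 6.54 and 6.85 at P15, 5.77, 5.73 and 5.89 at P21, and 6.10, 6.0 and 6.27 at P56, a change of −3.14 (SE 0.09, limma adjusted p 5.56e-15). No array of P15, P21 or P56 overlapped those of P0 or P7 for either gene. The mitotic kinase gene Plk1 had 8.96, 8.99 and 9.03 at P0, 9.23, 8.89 and 8.92 at P7, 6.92, 7.22 and 6.84 at P15, 6.55, 6.36 and 6.77 at P21, and 5.94, 6.43 and 5.82 at P56 and changed by −2.93 (SE 0.14). Cdk1, the kinase that drives entry into mitosis, had 8.72, 8.89 and 8.92 at P0, 8.32, 8.17 and 8.16 at P7, 6.77, 6.88 and 6.71 at P15, 6.38, 6.61 and 6.45 at P21, and 6.28, 6.15 and 6.16 at P56, with a change of −2.65 (SE 0.08). Plk1 was not called between P7 and P0, while Cdk1 was already lower on every P7 array. Ndc80, a kinetochore component, changed least among mitosis genes, with 6.27, 6.20 and 6.35 at P0, 6.03, 6.10 and 6.16 at P7, 5.77, 5.83 and 6.0 at P15, 5.68, 5.99 and 5.66 at P21, and 6.09, 5.99 and 6.09 at P56 (−0.22, SE 0.09, limma adjusted p 0.0355). The Ndc80 call was lost when either P0 replicate 1 (−0.22), P0 replicate 3 (−0.18) or P56 replicate 2 (−0.18) was left out, and the sign turned with array medians set to 0 (0.11).

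Among replication genes, Mcm6 of the MCM helicase fell most, with 8.60, 8.59 and 8.65 at P0, 8.11, 7.88 and 8.02 at P7, 6.52, 6.70 and 6.64 at P15, 6.35, 6.26 and 6.52 at P21, and 6.19, 5.99 and 5.98 at P56, a change of −2.56 (SE 0.08, limma adjusted p 1.93e-14). Its arrays stepped down at P7 and again at P15, and the P56 arrays lay under all others. Rrm2, the regulated subunit of ribonucleotide reductase, had 8.80, 8.85 and 8.55 at P0, 8.4, 8.30 and 8.33 at P7, 6.88, 6.71 and 6.85 at P15, 6.85, 6.97 and 6.95 at P21, and 6.53, 6.68 and 7.02 at P56 and changed by −1.99 (SE 0.11). The arrays of P15, P21 and P56 overlapped each other and lay under all of P0 and P7. Its partner subunit Rrm1 had 10.13, 10.14 and 10.08 at P0, 9.70, 9.73 and 9.61 at P7, 8.91, 8.68 and 8.75 at P15, 9.07, 9.02 and 9.18 at P21, and 8.04, 8.18 and 8.38 at P56, a change of −1.92 (SE 0.08). Mcm7, another helicase subunit, had 9.15, 9.29 and 9.24 at P0, 9.24, 9.01 and 9.0 at P7, 7.94, 7.94 and 7.71 at P15, 7.98, 7.97 and 7.98 at P21, and 7.44, 7.53 and 7.40 at P56, a change of −1.77 (SE 0.08). For both genes the P56 arrays were the lowest of all. Cdc6, the loader of the helicase, had 6.10, 6.13 and 6.51 at P0, 6.29, 6.63 and 6.47 at P7, 5.98, 6.41 and 6.04 at P15, 5.94, 6.41 and 5.63 at P21, and 6.05, 6.60 and 6.47 at P56, and its ages overlapped (0.13, SE 0.18, limma adjusted p 0.538).

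**Figure D2:**
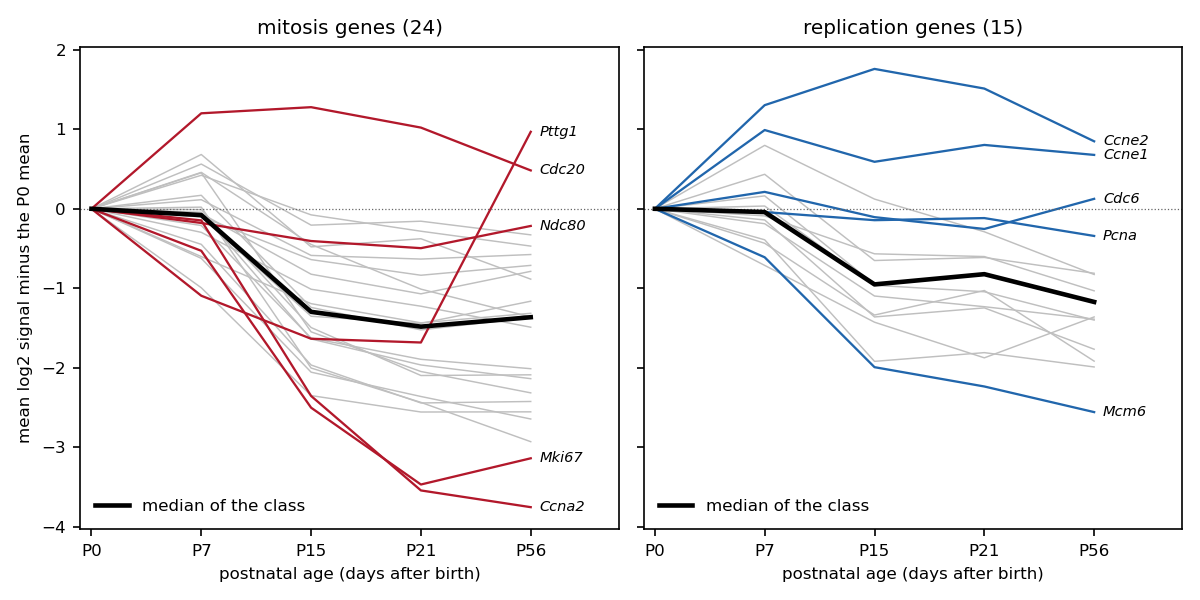
Mean log2 signal of each member minus its own P0 mean (vertical axis) at the 5 postnatal ages, for 24 mitosis genes and 15 replication genes, with the class median in black and 5 members per class coloured and named. Both medians stay near 0 at P7 and drop by P15, while Cdc20, Ccne1 and Ccne2 lie above 0 from P7 on and Pttg1 turns upward at P56.

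In the first week, P7 against P0, the members went in both directions and the class medians were near 0. Mitosis genes numbered 6 that rose, 7 that fell and 11 that did not pass (median −0.08), and replication genes 4, 4 and 7 (median −0.04). Over all probe sets 33.6% were called higher and 28.5% lower, so the members' shares lay near or under the background. All 3 genes of nucleotide supply fell, with Tyms, for thymidylate synthase, at −0.71, Rrm1 at −0.43 and Rrm2 at −0.39. Of the helicase and licensing genes, Mcm3 rose (0.43), Mcm6 fell (−0.61) and 5 were not called. E2f1, the transcription factor that activates replication genes, rose by 0.80. Among mitosis genes, Ccnb2 for cyclin B2 changed by −0.99, Nuf2 of the kinetochore by −0.60, Mki67 by −0.53 and Nusap1, a spindle-binding protein, by −0.45. The histone of centromeres, Cenpa, rose by 0.68, Aurka by 0.56, the APC/C partner Ube2c by 0.46, Top2a, a topoisomerase of chromosome condensation, by 0.45, and Cdca8 of the chromosomal passenger complex by 0.42. In the same interval all 9 Purkinje cell markers rose (median 4.39) and all 10 endothelial markers fell (median −1.89), and the part of this change in the captured RNA in the first-week changes of the members was not tested.

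The second week, P15 against P7, held the main fall of both classes. Of 24 mitosis genes, 22 fell and 2 were not called (median −1.21), and of 15 replication genes, 12 fell, 1 rose and 2 were not called (median −0.90). Over all probe sets 13.6% were called lower and 10.4% higher, with a median change of 0.0078. This was the step with the most negative change for 21 of 24 mitosis genes and 13 of 15 replication genes. With the P0 arrays left out of the fit, all 39 members kept their side of the threshold at this step. In this captured RNA, fewer dividing cells, less of an RNA per cell and a smaller carry-over of RNA from cells without the tag cannot be told apart.

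By role, all 3 genes of cyclins A and B and CDK1 fell, with Ccna2 at −2.21 (SE 0.14, limma adjusted p 7.33e-09), Cdk1 at −1.43 and Ccnb2 at −1.36. All 5 mitotic kinases and checkpoint genes fell. Plk1 changed by −2.02 (SE 0.14, limma adjusted p 3.67e-08), the checkpoint kinase Bub1 by −1.60, its relative Bub1b by −1.25, Aurka by −0.77 and the checkpoint kinase Ttk by −0.54. Of the chromosomal passenger complex, which corrects attachments to the spindle, all 3 genes fell, Aurkb at −1.48, Birc5 (survivin) at −0.70 and Cdca8 (borealin) at −0.50. The spindle genes fell to a like extent, Nusap1 at −1.52, Prc1 at −1.42 and Tpx2 at −1.41. Kinetochore and centromere genes fell in 4 of 5 cases, with Cenpa at −1.16, Cenpf at −0.76, the kinesin Cenpe at −0.72 and Nuf2 at −0.59, and Ndc80 was not called (−0.23, SE 0.09). Ttk, Cenpe and Nuf2 lay under the lower quartile on all 3 arrays of P15, which leaves their falls of uncertain size. Top2a had 8.06, 8.14 and 7.96 at P0, 8.66, 8.39 and 8.46 at P7, 6.64, 6.45 and 6.41 at P15, 5.87, 6.18 and 5.96 at P21, and 5.56, 5.78 and 5.86 at P56, and its fall of 2.00 at this step left all later arrays under those of P0 and P7. Mki67 fell by 1.97. Of the genes of anaphase and mitotic exit, Ube2c (−0.91) and Pttg1 (−0.54) fell and Cdc20 was not called.

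Of the MCM helicase, all 6 subunits fell, with Mcm6 at −1.38 (SE 0.08), Mcm7 at −1.22, Mcm2 at −1.11, Mcm3 at −1.09, Mcm5 at −1.0 and Mcm4 at −0.48. The subunits work as 1 ring, and the change of Mcm4 was the smallest among them. Rrm2 fell by 1.53 (SE 0.11, limma adjusted p 3.06e-08), Rrm1 by 0.90 and Tyms by 0.71. Cdk2 fell by 0.91, E2f1 by 0.68 and Ccne1 by 0.40. Cdc6 (−0.32, SE 0.18) and Pcna (−0.10, SE 0.09) were not called.

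Whether the second step differed from the first was tested as a contrast of its own, the change from P7 to P15 minus that from P0 to P7. Of 24 mitosis genes, 20 had a lower second step, 1 (Pttg1) a higher one and 3 were not called. Of 15 replication genes, 11 had a lower second step and 4 were not called. Over all probe sets the second step was called lower in 27.5% and higher in 21.9%. The difference was −2.45 for Top2a (SE 0.17), −2.06 for Ccna2, −2.05 for Plk1, −1.85 for Cenpa, −1.52 for Mcm3 and −1.47 for E2f1 (SE 0.14). Nuf2 (0.01), Ccnb2 (−0.36), Ndc80 (−0.05), Tyms (0.00), Mcm4 (−0.39), Pcna (−0.06) and Cdc6 (−0.53) were not called.

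**Figure D3:**
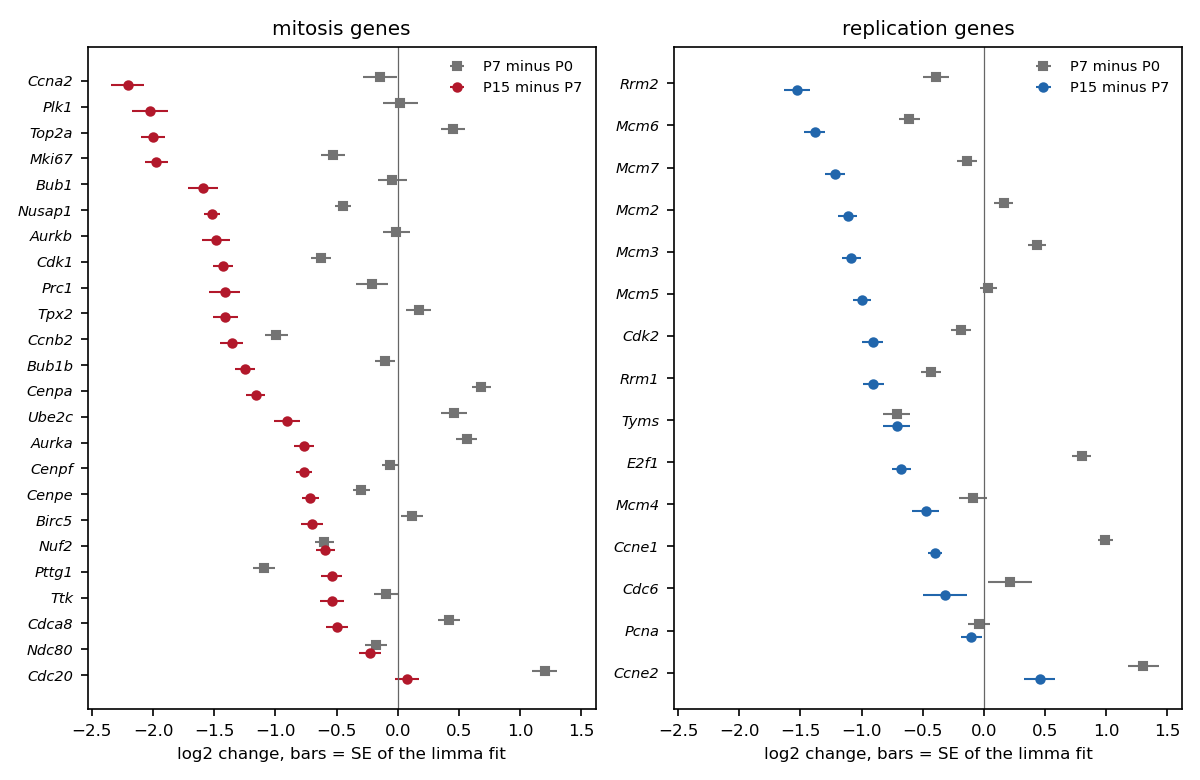
Log2 change of each member from P0 to P7 (grey squares) and from P7 to P15 (coloured circles), with the SE of the limma fit as bars, ordered by the second change. The grey squares lie on both sides of 0, and the coloured circles lie left of 0 for all members but Cdc20 and Ccne2.

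From P15 to P21 the falls went on among mitosis genes. Of 24, 11 fell and 13 were not called (median −0.25), and of 15 replication genes, 2 fell, 2 rose and 11 were not called (median −0.03), beside 7.16% of all probe sets called lower and 10.5% higher. Ccna2 fell by 1.19 (SE 0.14, limma adjusted p 1.91e-05), Mki67 by 0.97, Aurkb by 0.60 and Ube2c by 0.56. Tyms had 8.30, 8.32 and 8.08 at P0, 7.58, 7.42 and 7.57 at P7, 6.70, 6.97 and 6.75 at P15, 6.19, 6.35 and 6.53 at P21, and 7.02, 6.65 and 6.95 at P56, with its lowest arrays at P21 (−0.45, SE 0.11). E2f1 had 8.27, 8.13 and 8.37 at P0, 9.07, 8.96 and 9.15 at P7, 8.32, 8.35 and 8.47 at P15, 7.86, 8.07 and 7.98 at P21, and 7.36, 7.46 and 7.47 at P56, highest on every P7 array, and fell by 0.41 at this step. Rrm1 (0.31) and Ccne1 (0.21) rose, and both calls were lost without P15 replicate 3 (0.29 for Rrm1 and 0.17 for Ccne1). Rrm1 was also lost without P15 replicate 2 (0.26) or P21 replicate 3 (0.27), and Ccne1 without P15 replicate 1 (0.22) or P21 replicate 1 (0.20). The count of members called at this step was 15 with all arrays and 9 without P15 replicate 3.

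From P21 to P56 most replication genes fell, and mitosis genes went in both directions. Of 15 replication genes, 10 fell, 1 rose and 4 were not called (median −0.32), and of 24 mitosis genes, 7 fell, 5 rose and 12 were not called (median −0.06). Of all probe sets 34.3% were called lower and 22.1% higher. The array medians averaged 7.60 at P56, against 7.83 at P21. With medians set to 0 the count of replication genes that fell was 4, while 11 mitosis genes were higher and 2 lower. These counts are to be read against all 22092 probe sets, of which 11028 were then called higher and 4935 lower. The direction of small changes at this step thus rests on the scaling. Rrm1 fell by 0.89 (SE 0.08, limma adjusted p 1.06e-07), E2f1 by 0.54, Mcm7 by 0.52 and Mcm4 by 0.43. The Mcm4 call was lost with array medians set to 0 (−0.20) and with quantile normalization (−0.25). Tyms rose by 0.51 (SE 0.11). Mki67 rose by 0.33, Bub1b, Ndc80 and Cenpf by 0.28 each, and Mki67, Bub1b and Ndc80 lay under the lower quartile at P21. The Ndc80 call was lost without P21 replicate 1 (0.23) or P21 replicate 3 (0.22).

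At P21, 9 of 24 mitosis genes lay under the lower quartile on all 3 arrays, namely Ttk, Bub1, Bub1b, Cenpe, Ndc80, Nuf2, Prc1, Nusap1 and Mki67. At P56 there were 7 such genes, namely Ttk, Bub1, Cenpe, Nuf2, Prc1, Nusap1 and Top2a. At P15 there were 3, Ttk, Cenpe and Nuf2, at P0 and P7 the number was 0, and for replication genes it was 0 at every age. The late falls of these mitosis genes are likewise of uncertain size.

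The replication and mitosis classes were set against each other on each array, as the mean over mitosis genes minus that over replication genes, each gene relative to its own P0 mean. This difference was 0.00 ± 0.04 at P0, −0.14 ± 0.05 at P7, −0.51 ± 0.05 at P15, −0.78 ± 0.03 at P21 and −0.47 ± 0.07 at P56 (SD, n = 3 arrays). The mean over mitosis genes had thus fallen further than that over replication genes on every array of P15, P21 and P56, with the widest gap at P21. The replication mean includes Ccne1 and Ccne2, which lay above P0 at every later age and rose from P0 to P56 (0.68 and 0.85). Both raise the replication mean and so widen the gap, and the gap without Ccne1 and Ccne2 was not computed. The mitosis mean in turn includes Cdc20 and Pttg1, which also rose from P0 to P56 (0.48 and 0.97). At P21, 9 of 24 mitosis genes and 0 of 15 replication genes lay under the lower quartile on all 3 arrays, so the size of the gap is uncertain. The mitosis mean itself was −0.06 ± 0.08 at P7, −1.18 ± 0.02 at P15, −1.50 ± 0.03 at P21 and −1.47 ± 0.02 at P56. The replication mean was 0.09 ± 0.03, −0.67 ± 0.03, −0.72 ± 0.03 and −0.99 ± 0.07 at the same ages. Without Ccna2, Top2a and Mki67, which also act or rise in S phase, the gap was −0.38 ± 0.03 at P15, −0.56 ± 0.04 at P21 and −0.24 ± 0.08 at P56, so these 3 genes carried part of it. The genes were chosen with earlier results known, and no test is given for these means.

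A small set of members ran against their class. Cdc20, the activator of the APC/C, had 7.37, 7.54 and 7.81 at P0, 8.75, 8.72 and 8.86 at P7, 8.86, 8.94 and 8.75 at P15, 8.70, 8.64 and 8.45 at P21, and 7.95, 8.07 and 8.14 at P56, and all its later arrays lay above those of P0. It rose by 1.20 in the first week (SE 0.10, limma adjusted p 8.03e-09), did not pass the test in the second (0.08, SE 0.10), fell by 0.54 from P21 to P56 and was still higher at P56 than at P0 (0.48). The call of its fall from P21 to P56 was lost with quantile normalization (−0.24). Ccne1, for cyclin E1, had 9.10, 9.03 and 9.09 at P0, 10.08, 10.05 and 10.06 at P7, 9.68, 9.72 and 9.59 at P15, 9.90, 9.85 and 9.88 at P21, and 9.77, 9.79 and 9.69 at P56, a rise of 0.99 in the first week (SE 0.06) and of 0.68 from P0 to P56. Ccne2, for cyclin E2, had 7.55, 7.48 and 7.37 at P0, 8.78, 8.79 and 8.74 at P7, 9.21, 9.12 and 9.35 at P15, 9.17, 8.75 and 9.02 at P21, and 7.97, 8.56 and 8.42 at P56. It rose by 1.30 in the first week (SE 0.13) and by 0.46 in the second (SE 0.13, limma adjusted p 0.0133), a call lost without P15 replicate 3 (0.39), and it fell by 0.66 from P21 to P56. Both cyclin E genes were thus high after P0, whereas Cdk2, their kinase partner, had fallen at P56 (−1.39).

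Pttg1, which encodes securin, the inhibitor of sister chromatid separation, had 8.56, 8.59 and 8.71 at P0, 7.46, 7.56 and 7.56 at P7, 7.03, 7.04 and 6.88 at P15, 6.79, 7.13 and 6.89 at P21, and 9.48, 9.60 and 9.69 at P56. It fell by P7 (−1.09) and again by P15 (−0.54), did not pass the test from P15 to P21 (−0.05), and rose by 2.65 from P21 to P56 (SE 0.09, limma adjusted p 7.74e-13). Each P56 array lay above all arrays of the other ages. Pcna had 11.42, 11.52 and 11.41 at P0, 11.39, 11.44 and 11.41 at P7, 11.31, 11.28 and 11.34 at P15, 11.26, 11.19 and 11.56 at P21, and 11.17, 10.96 and 11.20 at P56 and changed by −0.34 from P0 to P56 (SE 0.09, limma adjusted p 0.00203). Its P56 arrays lay below those of P0, P7 and P15 and overlapped those of P21, and its other probe set changed by −0.35 (SE 0.09). Both Pcna probe sets had a mean level of 11.32 and like changes at every step, so the second may not be an independent measure. The Pcna call between P56 and P0 ended with array medians set to 0 (−0.02).

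**Figure D4:**
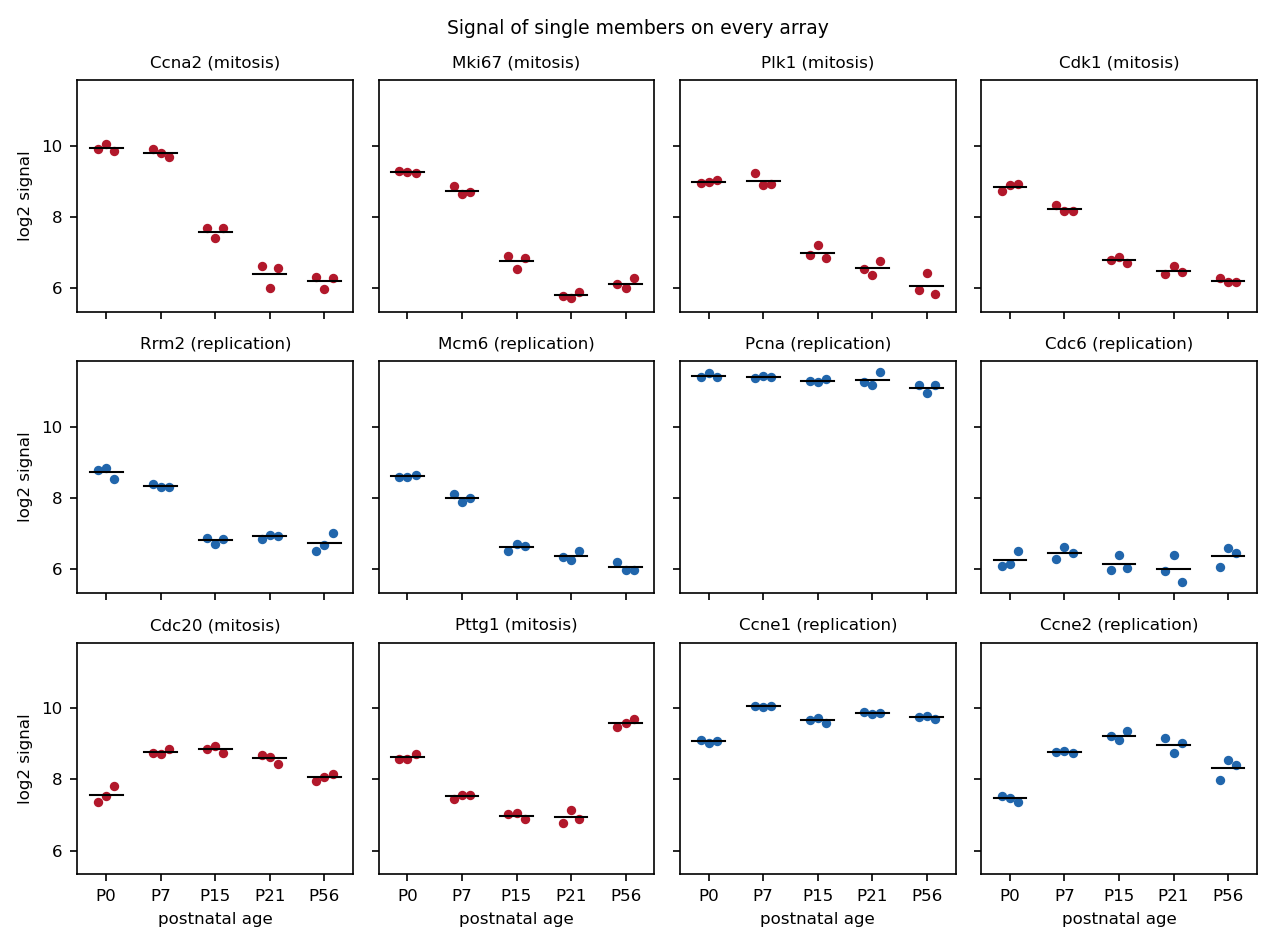
Log2 signal (vertical axis) of 12 members on each of the 15 arrays, 3 points per postnatal age with a line at their mean. Ccna2, Mki67, Plk1, Cdk1, Rrm2 and Mcm6 step down between P7 and P15, Pcna and Cdc6 move little, Cdc20, Ccne1 and Ccne2 are lowest at P0, and Pttg1 is highest at P56.

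Other genes of the same machinery were counted from lists that the rule for members did not use. The counts are set beside all probe sets, of which 13.6% were called lower and 10.4% higher from P7 to P15. Between P56 and P0 these shares were 35.3% and 40.1%. Of 53 other mitosis genes, 44 fell, 1 rose and 8 were not called from P7 to P15 (median −0.63), led by the kinetochore scaffold Knl1 (−1.92), the cytokinesis factor Ect2 (−1.49), Spc25 of the NDC80 complex (−1.31) and the condensin subunit Ncaph (−1.23). Between P56 and P0, 47 of them fell, 4 rose and 2 were not called. The kinase gene Nek2 (2.78) and the spindle gene Spag5 (2.55) rose, and Ncaph (−2.70) and the cohesin protector Sgo2a (−2.19) fell. Of 43 other replication genes, 27 fell, 2 rose and 14 were not called from P7 to P15 (median −0.31), with the polymerase gene Pole at −1.11, the chromatin assembly factor Chaf1b at −1.02, the clamp loader subunit Rfc3 at −0.78 and the licensing factor Cdt1 at −0.73. Between P56 and P0, 23 of these fell, 13 rose and 7 were not called, beside 35.3% lower and 40.1% higher over all probe sets. Pole (−2.53), Chaf1b (−2.19) and Rfc3 (−1.83) fell, and the fork protector Tipin rose (1.83).

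The cyclins and kinases of G1, which set the decision to divide, fell in 5 of 5 cases between P56 and P0 and in 4 of 5 from P7 to P15. Over all probe sets, 35.3% and 13.6% were called lower in these comparisons. Ccnd2, the D-type cyclin known from granule cell progenitors, changed by −1.76 in the second week and −2.49 over the whole course, Cdk6 by −0.94 and −2.10, and Ccnd1 by −0.67 and −1.82. Of 16 genes that restrain the cycle, 5 rose, 8 fell and 3 were not called between P56 and P0, beside 40.1% higher and 35.3% lower over all probe sets, and nothing is read from these counts about the list. Cdkn2d, an inhibitor of CDK4 and CDK6, rose by 2.76 (SE 0.08), and Rbl1, a relative of the retinoblastoma protein, and the repressor E2f8 changed by −1.83 and −1.54. Of 12 subunits of the APC/C itself, 5 rose, 6 fell and 1 was not called, to be read against the same shares over all probe sets, with Anapc13 at 3.44, Anapc11 at 1.22, Anapc1 at −0.90 and Cdc27 at −0.70.

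Markers of other cells were read beside the members. From P7 to P15, 6 of 10 markers of granule cell progenitors fell, 1 rose and 3 were not called (median −0.92). Over all probe sets 13.6% were called lower and 10.4% higher at this step. Mycn, a growth regulator of these progenitors, fell by 1.70, and the transcription factor genes Atoh1, Nhlh1 and, of hedgehog signalling, Gli2 changed by −1.66, −1.63 and −1.41. The other hedgehog genes of the list were not called lower: Ptch1, the hedgehog receptor, rose by 0.29, and Gli1 (−0.13) and Hhip (0.13) were not called. On the arrays of P0 the mean over these 10 markers lay in 8.81 to 8.87, on those of P7 in 8.92 to 8.95, on those of P15 in 8.06 to 8.17, on those of P21 in 7.71 to 7.79 and on those of P56 in 7.54 to 7.61, and Nhlh1 lay under the lower quartile at P56. In the same step 2 of 9 Purkinje cell markers rose and 7 were not called (median 0.10), and 1 of 10 endothelial markers fell (median −0.16). Of microglial markers 3 of 10 fell (median −0.08), and of 8 markers of oligodendrocyte precursors 1 rose and 2 fell (median 0.00). These small counts are to be read against the same shares over all probe sets. Aif1 of microglia lay under the lower quartile at every age, Fcrls from P15 on, and Tek of endothelial cells from P7 on. Of 10 markers of astrocytes and Bergmann glia, 6 rose and 3 fell (median 0.30). The fall of the members from P7 to P15 thus coincided with a fall of 6 of the 10 granule cell progenitor markers, while the median of the endothelial markers, which had changed by −1.89 in the first week, moved little, and the part of each cell type in the result was not tested.

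**Figure D5:**
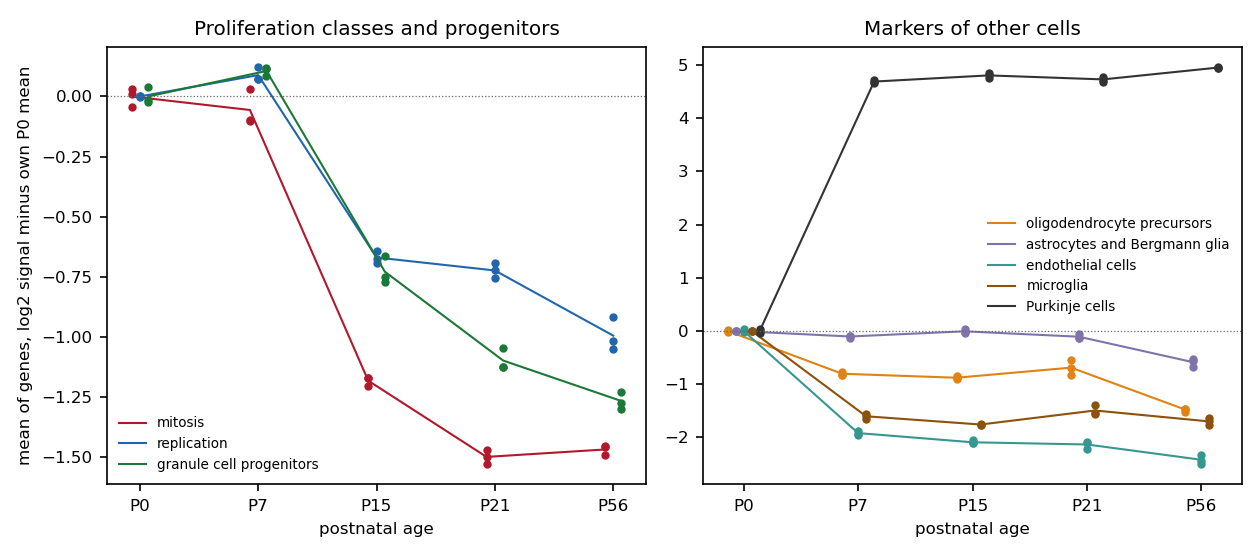
Mean over the genes of a list, each gene relative to its own P0 mean (vertical axis, log2), on the 15 arrays by postnatal age, with points for arrays and lines through the age means. The means of mitosis, replication and granule cell progenitor genes stay near 0 at P7 and drop by P15, whereas endothelial and microglial markers drop, and Purkinje cell markers climb, between P0 and P7.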

How the data were processed

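The authors deposited log2 signals, 1 per probe set and array. The submitters' processing notes name Affymetrix Power Tools, but no source used here gives its algorithm, background correction, centring or log base. Base 2 was inferred, since the deposited values span 3.15 to 14.1. Probe sets were named from the platform's annotation table (2016), which gave a single symbol to 20996, several to 91 and none to 1005. Of 236 list genes, 225 were measured, 5 of them matched by Entrez number. limma 3.58.1 in R 4.3.3 was fitted to all 15 arrays with a mean per age (10 residual degrees of freedom plus 6.5 from the prior), with two-sided tests and Benjamini-Hochberg adjustment over 22092 probe sets within each contrast. Neighbouring contrasts share the arrays of an age. The members and lists were chosen with earlier results of these data known. The labels do not say whether arrays of the same age hold RNA of separate pools, and if not, p-values measure only the spread between arrays. Depth does not apply to arrays, and their number limits the precision. No batch is recorded, so age and any batch that follows it cannot be told apart. On simulated data with this spread, of 50 changed probe sets per size, the comparison of P15 with P7 called 8% at a log2 change of 0.25, 82% at 0.5 and 100% at 1, with 11 false calls. The simulated data held no other age differences, whereas 13.6% of real probe sets were called lower and 10.4% higher at this step. The adjusted threshold therefore differs, and these shares do not give the sensitivity of the real comparison. The replicate numbers were not treated as pairing the arrays, since deviations of 30 same-numbered pairs of arrays correlated at −0.31 to 0.45 (median −0.0030). Between P15 and P21, however, same-numbered pairs correlated at 0.33, 0.45 and 0.02, and different-numbered pairs at −0.42 to 0.16. A shared effect at these ages is therefore possible and was not tested. With a replicate block the calls of Plk1, Cenpe and Nuf2 from P15 to P21 were lost. In full were given, per class, the 4 called members with the largest change and the one with the smallest between P56 and P0, the 2 with the largest called change per step and each called higher between P56 and P0, and of other lists up to 4 called genes with the largest change. Top2a and Pcna were given in full after their values were seen. Alternatives were array medians set to 0, quantile normalization, dropping the dimmest 50% of probe sets, a trended and robust prior, array weights, a replicate block, averaging a gene's probe sets and leaving out each array. Leaving the P0 arrays out of the fit and leaving Pttg1 out of the class mean were chosen after seeing the data. Figures were drawn with matplotlib 3.10.9.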

Additional observations from a re-analysis of the deposited data

How the results depend on the processing

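Of the falls that led the account, the P56 against P0 and P15 against P7 counts of both classes stayed within 1.5 times under every alternative but the removal of dim probe sets, which left 16 of 39 members in the fit (9 replication, 7 mitosis). Under that removal, the members called were 9 (P7 against P0), 14 (P15 against P7), 6 (P21 against P15), 13 (P56 against P21), 16 (P56 against P0), 14 (second against first step) and 16 (any age, 9 replication and 7 mitosis). Of the 11046 probe sets kept, 5701 were called higher and 3532 lower for P7 against P0, and 2231 and 2659 for P15 against P7. For P21 against P15 they numbered 2228 and 1697, for P56 against P21 2295 and 6119, and for P56 against P0 4708 and 4982. The second step was higher in 2822 and lower in 5245, and 10830 differed at any age. The member counts are to be read against these numbers. The members' lower calls under this removal were 1, 7, 1, 7 and 7 for replication genes and 2, 6, 3, 5 and 6 for mitosis genes, in the order P7 against P0, P15 against P7, P21 against P15, P56 against P0 and second against first step. Mitosis genes had 3 higher calls for P7 against P0, and for P56 against P21 there were 3 lower and 1 higher, with 0 higher replication genes. The gap between the classes (mitosis minus replication) was then −0.27, −0.48, −0.40 and 0.61 over the 4 steps and −0.54 for P56 against P0, where all 39 members gave −0.14, −0.37, −0.26, 0.30 and −0.47. These filtered values rest on fewer genes. With array medians set to 0, P56 against P21 had 4 replication genes lower and 2 higher, and 2 mitosis genes lower and 11 higher, and 1 replication gene was higher for P21 against P15. That setting moved the median of all probe sets by over 0.1 for both comparisons with P56, to 0.41 against P0 and 0.21 against P21, and it turned the sign of Mcm3 (0.036) and Pcna (0.010) for P56 against P21, of Ndc80 for P56 against P0 (0.11), and of the class medians of replication for P7 against P0 (0.017) and of mitosis for P56 against P21 (0.18). Probe sets called higher and lower then numbered 3583 and 2178 for P15 against P7 (2296 and 3009 as deposited), 1885 and 2226 for P21 against P15 (2322 and 1581), 11028 and 4935 for P56 against P21 (4893 and 7571), and 13631 and 5800 for P56 against P0 (8855 and 7792), while all 39 members kept their side of the threshold for P15 against P7. The replication median was also positive without dim probe sets for P7 against P0 (0.035) and P21 against P15 (0.026), and for P21 against P15 it ran from −0.084 to 0.069 when single arrays were left out. Quantile normalization gave 6 replication genes lower for P56 against P21 and gaps of −0.091 (P7 against P0), 0.18 (P56 against P21) and −0.53 (P56 against P0). Leaving out Ccna2, Top2a and Mki67 gave gaps of −0.23 (P15 against P7), −0.18 (P21 against P15) and −0.24 (P56 against P0), and leaving out Pttg1 gave 0.19 (P56 against P21) and −0.58 (P56 against P0). With the replicate block, 2 replication genes were higher for P56 against P21 in place of 1, and no other class count left the range of 1.5 times. Leaving out single arrays gave 9 to 16 members called for P21 against P15, with 7 to 12 mitosis genes lower (7 without P15 replicate 2, P15 replicate 3 or P21 replicate 1) and 0 to 2 replication genes higher (0 without P15 replicate 3). It gave 1 to 2 replication genes higher for P56 against P21 and 0 to 1 for P15 against P7. Of the single-gene changes over all alternatives, 4975 kept their side of the threshold, 98 lost a call and 51 gained one. A further 3 turned sign with a call in the main fit or in the alternative. Turns of sign without a call in either fit were counted as kept. The cause of these changes was not tested.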

Other observations

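Among genes outside all lists, those with profiles most like the mean of the mitosis genes over the 15 arrays included further genes of the cell cycle. The most alike were Islr2 (Pearson r 0.995) and Vsig10l (0.990), and Tmem132d (0.981) was also among the closest. No cell cycle role is given here for these genes, and Vsig10l was also close to the replication mean (0.980). Those of the cell cycle were the kinetochore gene Knstrn (0.987), Ticrr, which starts replication origins (0.985), and Dtl, a ubiquitin ligase receptor of S phase (0.984). Pclaf, a partner of PCNA (0.984), and the mitotic kinesin Kif18b (0.983) were further ones. Islr2 had means of 11.33 at P0, 10.87 at P7, 7.99 at P15, 7.0 at P21 and 6.81 at P56, and Pclaf had 8.74, 8.48, 6.84, 6.22 and 5.83 at these ages. For the mean of the replication genes, Nxph4 (0.988), Slc29a1, a nucleoside transporter (0.987), Dbpht2 (0.982) and Npbwr1 (0.980) led. The arrays fall into ages, so these values only rank profiles.

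Within the classes, the correlation of a gene with the mean of the rest of its class over the 15 arrays was highest for Nusap1 (0.991) among mitosis genes and for Mcm5 (0.990) among replication genes. It was lowest for Cdc20 (−0.31) and Pttg1 (−0.0063) among mitosis genes and for Ccne2 (−0.45), Ccne1 (−0.27) and Cdc6 (0.20) among replication genes. The promoter windows of Pttg1, Birc5, Nuf2 and Nusap1 among mitosis genes and of Ccne1, E2f1 and Tyms among replication genes held none of the 3 elements, so windows without a match belonged both to genes most like their class and to genes least like it. Cdk1 was the mitosis gene whose window held all 3 elements.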
